A study of Rattus norvegicus with 10 samples.

Results

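Subunits of the mitochondrial respiratory chain and of ATP synthase were followed through graded caloric restriction (CR) in rat gastrocnemius, a mixed calf muscle made largely of fast fibres. Members were the genes whose platform symbol begins with Nduf (complex I), Sdha to Sdhd (complex II), Uqcr (complex III), Cox4 to Cox8 (complex IV) or Atp5 (ATP synthase), with assembly factors left out, and each gene was read from its brightest probe set that carried a single gene. Of 80 matching symbols, 78 had a mean signal of at least 17.84 and were kept, out of 9170 genes with a tested single-gene probe set. Both of the others, Cox6b2 and Cox7b2, isoforms known from testis, had mean signals of 1.1 and 2.3. The members comprised 36 genes of complex I, 4 of complex II, 7 of complex III, 15 of complex IV and 16 of ATP synthase, counted by prefix. Ndufa4 is counted with complex I by its symbol although its protein is now placed in complex IV, Cox6c-ps1 is annotated as a pseudogene, and Ndufa4l2, Cox7a2l and Atp5if1 encode a paralog, a supercomplex factor and an inhibitor rather than structural subunits.

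Oxidative phosphorylation couples electron transfer to ATP synthesis at the inner mitochondrial membrane. Complex I takes electrons from NADH and complex II from succinate, complex III hands them from ubiquinol to cytochrome c, complex IV passes them to oxygen, and ATP synthase uses the proton gradient that complexes I, III and IV build. Nearly all subunits come from nuclear genes, while the catalytic cores of complexes I, III and IV and part of the ATP synthase proton channel also contain subunits encoded by mitochondrial DNA, and oxidative slow muscle fibres hold more of this machinery than glycolytic fast fibres.

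The arrays came from male Wistar rats fed an AIN-93G diet either freely or at 5, 10, 20 or 30% less energy, for 1 week or 1 month from 6 weeks of age, and killed after a 16 h fast. Each of the 10 combinations of level and duration was 1 array, hybridized with RNA pooled from 5 rats, so no group had a replicate and every test below measures scatter between pools of different groups. In bulk muscle RNA, fewer fibres of a type and less of a transcript per fibre cannot be told apart. The second label line of the 1-week control and of the 1-week 5% array names the opposite feeding, so the 1-week results of the set, and single genes where the swap turns a statement, are also given with both exchanged, while signals are printed under the group each array is titled with.

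The trimmed mean signal was 99.64 on the 1-week arrays and 86.44 on the 1-month arrays, and the 3′ to 5′ signal ratio of Gapdh ran from 1.02 to 1.08. That of actin ran from 1.24 on the 1-week 30% array to 1.70 on the 1-week control, and its part in the 1-week ratios was not tested. Skeletal muscle markers read high (the 8 measured averaged between 4893 and 10222), while the 6 cardiac markers averaged between 2.28 and 15.4. The 1-week control array stood apart in its slow fibre genes. The mean log2 signal of 11 slow fibre genes, centred over the 10 arrays, was -1.15 on it and between -0.45 and 0.60 on the 9 others, and Myh7, the slow myosin heavy chain, read 464 on it against 2916 on the 1-week 30% array. Not every gene of the list was low there, as Tpm3 read 207.4 on it and 194.5 on the 1-week 30% array. Fast fibre genes were not higher on it, with a mean log2 signal of 12.886 against 13.015 to 13.056 on the other 1-week arrays.

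The subunits were among the brightest transcripts of the muscle and varied little between arrays. Their mean signal ranged from 28.7 to 6565 with a median of 3015, and 65 of 78 (83.3%) fell in the brightest of 20 bins of equal size, which began at a signal of 1228. After scaling, the highest and lowest of the 10 arrays differed by a median factor of 1.32 per member, against 1.59 over all 15521 tested probe sets and 1.29 over the 712 other probe sets of the brightest bin. Ndufa13, a complex I accessory subunit also known as Grim19, had the narrowest range, 1.11-fold. Ndufa5, Cox4i2 and Cox6c-ps1 were the members that spanned more than 2-fold, at 2.46, 2.45 and 2.02. Median ranges were 1.30 for complex I, 1.25 for complex II, 1.26 for complex III, 1.36 for complex IV and 1.34 for ATP synthase.

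None of the 78 members passed the test for restricted against control, which compared the mean of 8 restricted arrays with that of 2 controls and let the durations differ (limma, Benjamini-Hochberg adjusted p under 0.05), where 2% of all tested probe sets passed. At an unadjusted p under 0.05 there were 2 members, Cox7a1 above and Ndufc2 below control, or 2.56% against a background of 14.2%. The median difference of the members was -0.06 on the log2 scale and that of all tested probe sets was -0.01. By complex the medians were -0.04 for complex I, -0.03 for complex II, -0.04 for complex III, -0.05 for complex IV and -0.08 for ATP synthase, each smaller in size than the median standard error of a member, 0.085. The median turned on the control arrays, being -0.19 without the 1-week control and 0.07 without the 1-month control, and no member passed in either case. With the slow fibre mean as a covariate it was -0.13, with 70 of 78 members negative and 13 at an unadjusted p under 0.05 (11.9% of tested), all negative and none past adjustment. Of the 78 intervals at the 95% level, 72 lay within 0.5 log2 units of 0 (1.41-fold), 36 lay within 0.25 (1.19-fold), and all lay within 1 (2-fold). The plot of estimates shows most intervals crossing 0. The widest was that of Cox4i2, a dim probe set, while the widest of complex I was that of Ndufa5, whose mean signal was 1628.

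**Figure D1:**
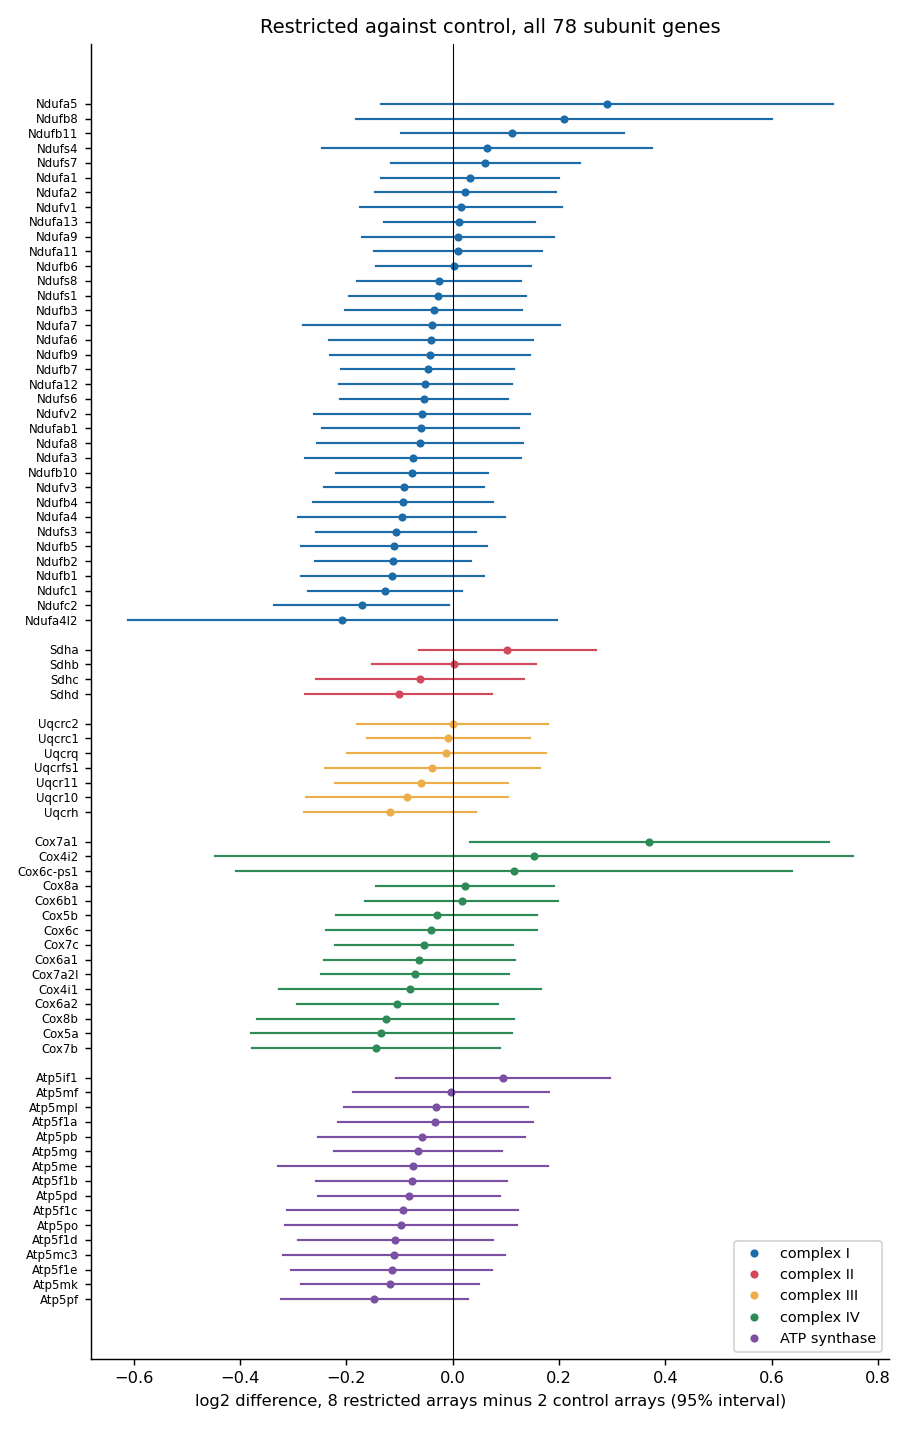
Log2 difference between the 8 restricted and the 2 control arrays for each of the 78 subunit genes (points, on the horizontal axis) with its 95% interval (lines), ordered within each complex. Cox7a1 at 0.37 and Ndufc2 at -0.17 are the members whose intervals leave out 0.

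Slopes on the level of restriction were small. No member passed for the dose trend (log2 change per 10 percentage points over all 10 arrays), where 2% of tested probe sets did, and at an unadjusted p under 0.05 there were 2 members, both with positive slopes, against a background of 14.3%. The median slope was 0.02, positive in 69 of 78 members, and 78 of 78 intervals lay within 0.5 per step. Within the 8 restricted arrays alone the slopes of 74 of 78 members were positive with a median of 0.06, and 37 members had an unadjusted p under 0.05, all positive, against 4.95% of tested probe sets in that direction and 10.4% in either. The 37 became 11 without the 1-month 30% array, 15 without the 1-month 5% array, 24 without the 1-month 20% array and 22 without the 1-week 5% or 30% array. Of the 15521 tested probe sets, 1500, 1437, 1546, 1404 and 1338 reached that threshold in these settings, in either direction and in the same order. Leaving out each of the 8 restricted arrays in turn gave 11 to 36 members. None of the 37 passed after adjustment, with a smallest adjusted p of 0.21 (limma), and 0.245% of tested probe sets did. Taking off the median of the 100 non-member probe sets nearest in brightness left 2 members at p under 0.05, where 9.69% of tested probe sets were, and a median slope of 0.02. With the background of 20 brightness bins these were 8 members (9.8% of tested) and 0.03.

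**Figure D2:**
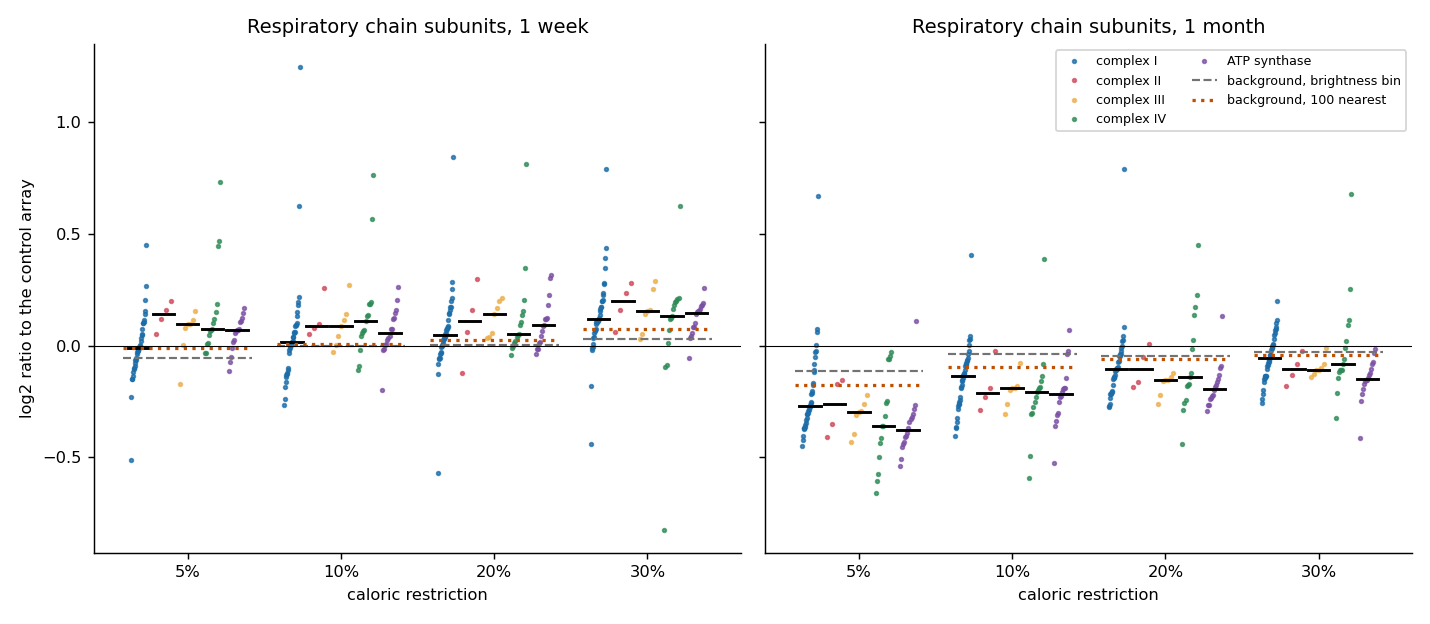
Log2 ratio of restricted to control array within a duration (vertical axis) by level of restriction, 1 point per subunit gene coloured by complex, with the median of each complex (black bars), the median ratio of other probe sets of the same brightness bin (dashed) and of the 100 nearest in brightness (dotted). The medians of the members are 0.05, 0.06, 0.06 and 0.14 at 1 week and -0.31, -0.19, -0.14 and -0.09 at 1 month.

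Against the control array of its own duration, the set as a whole sat slightly higher at 1 week and lower at 1 month. At 1 week the median log2 ratio was 0.05, 0.06, 0.06 and 0.14 at 5, 10, 20 and 30% CR, so the typical member read 104, 104, 104 and 110% of control. At 1 month it was -0.31, -0.19, -0.14 and -0.09, or 80.9, 87.7, 90.7 and 94.0% of control, farthest from control at the mildest restriction. All 4 ratios were above 0 at 1 week and all 4 below 0 at 1 month in 34 of 78 members, a pattern held by 5.23% of all tested probe sets and by 16.0% of the non-members of the brightest bin, and no member had the opposite pattern (3.5% of tested). The 34 became 11 with quantile normalization (3.89% of tested), 16 with cyclic loess (4.24%) and 16 after the 100 nearest probe sets were taken off (4.08%). Among the non-members of the brightest bin, 3.37, 6.74 and 6.04% had the pattern in these settings. With the 1-week control and 5% arrays traded, 11 members had the pattern (3.53% of tested and 10.3% of the non-members of the brightest bin). The 1-week medians were then -0.05, 0.03, 0.05 and 0.10 over the rising levels. In that case the number of members with all 4 ratios above 0 at 1 week was 15 in place of 40. The share of all tested probe sets was 17.7% in place of 24.0%, and of the non-members of the brightest bin 28.4% in place of 29.2%. Of the genes described below as above control on all 1-week restricted arrays, Ndufs1 and Cox8b then lay below it on all 4. Atp5f1b was above it on 1, Cox7a1, Cox7b and Uqcrc2 on 2, and Ndufa5, Sdha, Uqcrfs1, Uqcrc1 and Cox6a2 on 3. With 1 array a group these ratios have no test, and all 4 ratios of a duration share 1 control array.

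Every complex followed the shift at 1 month. At 5% CR after 1 month the median ratio was -0.27 for complex I, -0.26 for complex II, -0.30 for complex III, -0.36 for complex IV and -0.38 for ATP synthase. With the median of the probe sets nearest in brightness taken off, these were -0.08, -0.04, -0.08, -0.09 and -0.06. ATP synthase had the lowest median at each 1-month level before this step and at no level after it. With the background of 20 brightness bins it stayed lowest at 20 and 30% CR. By 30% CR the medians with nothing taken off were -0.05, -0.11, -0.11, -0.08 and -0.15, in the same order of complexes. At 1 week and 30% CR they were 0.12, 0.20, 0.15, 0.13 and 0.14, and the lowest median of any complex at 1 week was -0.01, for complex I at 5% CR. Of the 78 members, 54 were at least 0.25 below control on the 1-month 5% array, where 23.2% of all tested probe sets were, followed by 25 at 10% CR (23.8% of tested), 10 at 20% (20.3%) and 3 at 30% (22.9%). Among the non-members of the brightest bin these shares were 34.1, 18.7, 13.8 and 12.2%. Those at least 0.25 above control at 1 week numbered 5, 7, 8 and 11 over the rising levels (23.5, 23.1, 21.9 and 21.2% of tested). Of the non-members of the brightest bin, 5.90, 7.30, 8.57 and 12.8% were that far above control. In the same values, the 1-month 5% array held the lowest scaled value of 55 members. The highest was on the 1-month control for 32 members and on the 1-week 30% array for 26. No such count over other probe sets is given, so these positions describe the members alone.

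The 1-month shift varied with brightness. Among the 65 members of the brightest bin, the ratio on the 1-month 5% array correlated with mean log2 signal at r = -0.63, and among the 712 other probe sets of that bin at r = -0.61, both across probe sets of the same arrays and given as descriptions. For the members it was -0.27, -0.46 and -0.44 on the 1-month 10, 20 and 30% arrays, and at 1 week 0.21, 0.10, 0.00 and -0.02. The members of that bin had a median signal of 3405 and the others 2130. On the 1-month arrays the median ratio of the 100 probe sets nearest in brightness to each member, themselves no members, was -0.18, -0.10, -0.06 and -0.04 at 5, 10, 20 and 30% CR. Beyond that background the members lay at -0.08, -0.08, -0.05 and -0.03, or -0.20, -0.15, -0.09 and -0.06 with the coarser background of 20 bins. After the nearest-probe-set background was taken off, 12, 9, 2 and 1 members were at least 0.25 below control on the 1-month arrays, where 20.6, 21.3, 19.2 and 21.6% of all tested probe sets were. At 1 week the corresponding background was -0.01, 0.01, 0.02 and 0.07 and the members exceeded it by 0.03, 0.04, 0.05 and 0.06. The plot of ratio against brightness shows the members lying along the bend of all bright probe sets on the 1-month 5% array.

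**Figure D3:**
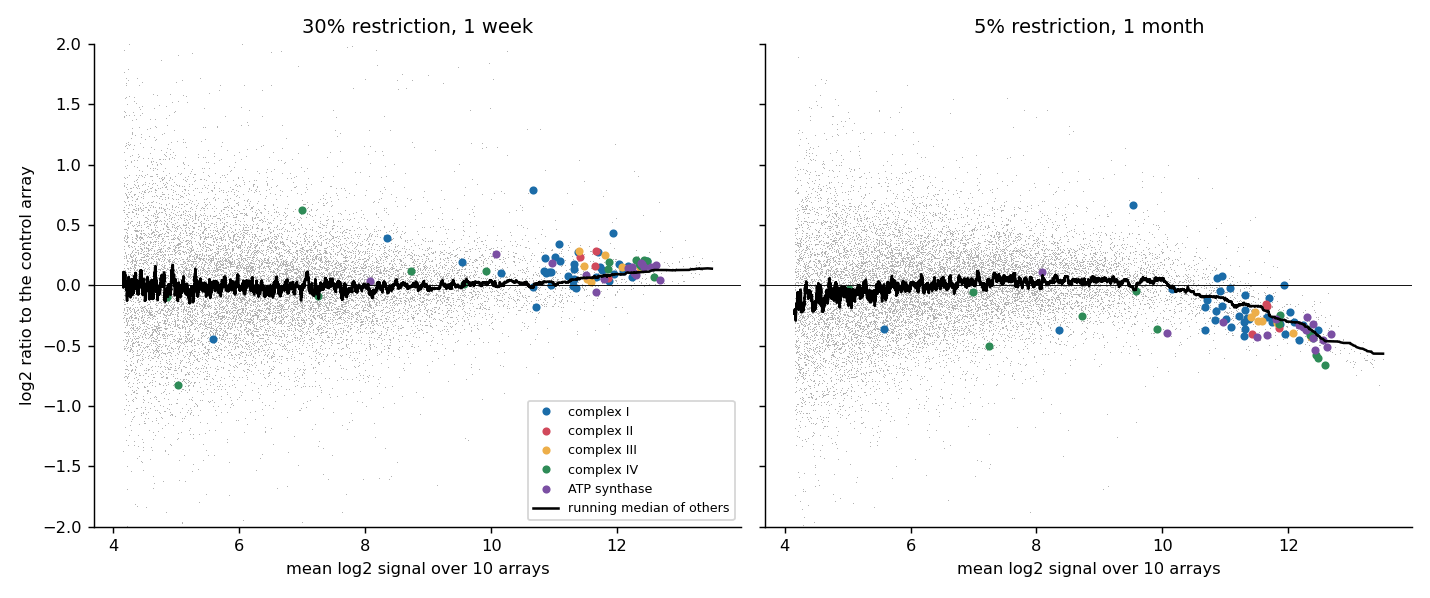
Log2 ratio to control (vertical axis) against mean log2 signal (horizontal axis) for all 15521 tested probe sets (grey) on the 1-week 30% array and the 1-month 5% array, with the 78 members coloured by complex and a running median of non-members (black). On the 1-month 5% array the median member lies at -0.31, and at -0.08 relative to the 100 probe sets nearest to it in brightness.

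Other bright muscle transcripts were also lower at 1 month. Fast fibre genes (14 tested) had median ratios from -0.62 to -0.25 on the 4 restricted arrays at 1 month and from 0.06 to 0.13 at 1 week, and 8 general skeletal muscle genes had -0.57 to -0.23 and 0.07 to 0.14. Markers of other cell types did not move one way. At 1 month the medians were 0.31 to 0.66 for 3 adipocyte genes, 0.05 to 0.63 for 10 fibroblast genes and 0.26 to 0.85 for 7 macrophage genes, against 0.02 to 1.39, 0.21 to 0.29 and 0.28 to 0.33 at 1 week. For 3 nerve and Schwann cell genes they were 0.35 to 0.56 and at 1 week 0.20 to 0.31. For 5 endothelial genes they were -0.10 to 0.14 and at 1 week -0.07 to 0.47, and for 2 erythroid genes -0.63 to -0.16 and at 1 week -0.25 to 0.36. The part of these cell types in the subunit ratios was not tested.

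The difference between the durations did not pass its own test. In the contrast of restricted against control by duration (1 month minus 1 week), the median member differed by -0.25, 69 of 78 were negative, and 25 had an unadjusted p under 0.05, all negative, where 4.52% of tested probe sets were negative at that threshold and 7.22% reached it in either direction. No member and no tested probe set passed after adjustment (0% of 15521, limma). The smallest adjusted p of a member was 0.21, for Cox7b, a small complex IV subunit, at -0.63 with a standard error of 0.14. With the nearest-probe-set background taken off, the median was -0.10 and 16 members had an unadjusted p under 0.05 (6.83% of tested), and with quantile normalization these were -0.08 and 12 (6.5% of tested). The background of 20 brightness bins gave -0.20 and 26 (7.11% of tested). With the 1-week control and 5% arrays traded the median was -0.20, 11 members reached that threshold (5.39% of tested), and the smallest adjusted p was 0.88 (limma). The dose by duration contrast had 0 members past adjustment (0% of tested) and 3 at an unadjusted p under 0.05, against 6.06% of tested probe sets.

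Duration itself set 5 arrays at 1 month against 5 at 1 week with the level as a covariate. All rats began at the same age, so the 1-month rats were older, and age and time on the diet cannot be told apart. No member passed where 10% of tested probe sets did, and 8 of 78 had an unadjusted p under 0.05 against 24.4% of tested. The median was -0.06 and 63 of 78 members were negative. With the level as a block, which pairs the arrays of 1 level, no member passed and 8.79% of tested probe sets did. Atp5mg, the ATP synthase subunit g of the membrane part, had the smallest p of the members and was at -0.17 ± 0.06 (SE, adjusted p = 0.081, limma). This comparison rests on putting both durations on 1 scale. On the signals as deposited, whose trimmed mean differed between durations by -0.21 on the log2 scale, 71 of 78 members passed as lower, as did 32.8% of tested probe sets, with a median of -0.26 beside a median of -0.21 over all tested probe sets. Without the 1-month control array 11 members passed, all lower at 1 month (6.22% of tested probe sets in that direction), among them Atp5mg at -0.22 (adjusted p = 0.0092) and Ndufb5 at -0.22 (adjusted p = 0.0060, limma).

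Among the core subunits of complex I, which carry its flavin and iron-sulphur clusters, Ndufs1, the largest of them, read 2542 on the 1-week control and 2925, 2649, 2864 and 2867 at 5, 10, 20 and 30% CR, and at 1 month 2608 on the control and 2263, 2223, 2269 and 2271. All 1-week restricted arrays were above their control and all 1-month ones below theirs. Its difference for restricted against control was -0.03 ± 0.08 (SE, adjusted p = 0.91, limma). Ndufv1, the flavin-binding subunit that receives electrons from NADH, gave 2269 on the 1-week control and 2301, 2221, 2512 and 2883 with restriction, and 2008 on the 1-month control and 1974, 1860, 1831 and 1890. Its values overlapped the control at 1 week and lay below it at 1 month, and the difference was 0.02 ± 0.09. Ndufs7, which holds the last iron-sulphur cluster before ubiquinone, read 3321 on the 1-week control and 3307, 3322, 3811 and 4030 with restriction, then 3109 on the 1-month control and 2887, 3173, 3159 and 3270. Its dose trend was 0.07 ± 0.03 per 10 percentage points (adjusted p = 0.19, limma).

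The accessory subunits of complex I, which surround the core, held the complex I members farthest from 0. Ndufa5 read 948.8 on the 1-week control and 1296, 2250, 1702 and 1639 with restriction, against 2028 on the 1-month control and 1571, 1571, 1751 and 1938. The 1-week control was the lowest of the 10 arrays and the 1-month control was, after scaling, the highest, so restriction lay above control at 1 week and below at 1 month. The pooled difference was 0.29 ± 0.20 (adjusted p = 0.56, limma), and it came to -0.25 without the 1-week control array, to 0.83 without the 1-month control array and to 0.01 when the 1-week control was swapped with the 1-week 5% array. With the slow fibre mean as a covariate it was 0.13 ± 0.23.

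Ndufb8, often used as a protein marker of complex I assembly, gave 929.7 on the 1-week control and 652.0, 788.5, 1040 and 1066 with restriction, and 465.1 on the 1-month control against 738.9, 616.6, 805.0 and 534.6. At 1 month all restricted arrays were above the control, the reverse of most members, and at 1 week the arrays as titled lay on both sides of it. Once the 1-week control and 5% arrays were exchanged, all 4 1-week ratios were above 0, at 0.51, 0.27, 0.67 and 0.71. The difference was 0.21 ± 0.18 (adjusted p = 0.67, limma), and 0.53 when the 1-week control was swapped with the 1-week 5% array (adjusted p = 0.37). Ndufb11 read 3750 on the 1-week control and 3699, 3999, 4571 and 5078 with restriction, while the 1-month arrays gave 3615 on the control and 3623, 3723, 3505 and 3879. Its signal was ordered with the level at 1 week except for the 5% array, and stayed near control at 1 month. Exchanging the 1-week control and 5% arrays put all 4 1-week ratios above 0 and in order of level, at 0.02, 0.11, 0.31 and 0.46. Ndufb11 was fitted below with the arrays as titled. Over all arrays its dose trend was 0.09 ± 0.03 (adjusted p = 0.15, limma), and in a fit to the 1-week arrays alone it was 0.16 ± 0.03 per 10 percentage points and was the single member to pass (adjusted p = 0.026, limma), where 0.702% of tested probe sets did.

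At the lower end, Ndufc2, a membrane-arm accessory subunit, read 2914 on the 1-week control and 2791, 2956, 2756 and 2900 with restriction, and 2644 on the 1-month control and 1972, 2089, 2205 and 2275. At 1 week the restricted arrays lay on both sides of control and at 1 month all lay below it. The difference was -0.17 ± 0.08 (adjusted p = 0.33, limma). Ndufa4l2, a hypoxia-inducible paralog of Ndufa4, was dim, at 59.3 on the 1-week control and 66.1, 58.9, 39.9 and 43.7 with restriction, and 48.1 on the 1-month control against 37.4, 48.2, 42.6 and 40.2. Its difference was -0.21 ± 0.19 (adjusted p = 0.68, limma) where Ndufa4 itself had -0.10 ± 0.09.

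Complex II has 4 nuclear subunits, all measured. Sdha, the flavoprotein that oxidises succinate, read 3072 on the 1-week control and 3531, 3678, 3774 and 3736 with restriction, and 3046 on the 1-month control against 2703, 2992, 3057 and 2994. All 1-week restricted arrays were above their control, whereas at 1 month 3 were below it and 1 was level with it. The difference was 0.10 ± 0.08 (adjusted p = 0.60, limma), with 0.26 at 1 week alone (adjusted p = 0.27). Sdhb, the iron-sulphur subunit, Sdhc and Sdhd, the membrane anchors, had differences of 0.00, -0.06 and -0.10. Sdhd had a further bright probe set, which read 2172 on the 1-week control and 2120, 2082, 2249 and 2332 with restriction, and 1929 on the 1-month control against 1759, 1867, 1876 and 1799. Both probe sets lay below control on all 1-month restricted arrays.

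In complex III, differences ran from -0.12 for Uqcrh, the hinge protein that helps dock cytochrome c, to 0.00 for Uqcrc2, a core protein. Uqcrfs1, the Rieske iron-sulphur protein, read 4327 on the 1-week control and 4632, 5229, 4859 and 4811 with restriction, and 4517 on the 1-month control against 3437, 3655, 4048 and 4097. Each restricted array was above its control at 1 week and below it at 1 month, and the pooled difference was -0.04 ± 0.10 (adjusted p = 0.90, limma). Uqcrc1, a further core protein, followed the same order, with 2901 on the 1-week control and 3064, 3087, 3202 and 3237 with restriction, and 2794 on the 1-month control and 2397, 2647, 2508 and 2640.

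Complex IV is where muscle uses tissue-specific isoforms, and the nuclear subunits fall into pairs. Cox7a1, the isoform of heart and skeletal muscle, had the largest estimate of all members. It read 99.6 on the 1-week control and 165.3, 169.1, 174.9 and 153.7 with restriction, and 108.0 on the 1-month control against 103.7, 87.3, 118.8 and 128.6. The 1-week control lay well below the arrays of its duration, and at 1 month control and restricted arrays overlapped. The difference was 0.37 ± 0.16 (adjusted p = 0.30, limma), 0.73 in the 1-week arrays alone (adjusted p = 0.10), 0.01 without the 1-week control array and -0.09 when the 1-week control and 5% arrays traded places. With the slow fibre mean as a covariate it was 0.15 ± 0.16 (adjusted p = 0.77, limma). The plot of Ndufa5, Ndufb8, Cox7a1 and the slow fibre mean sets these values side by side.

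**Figure D4:**
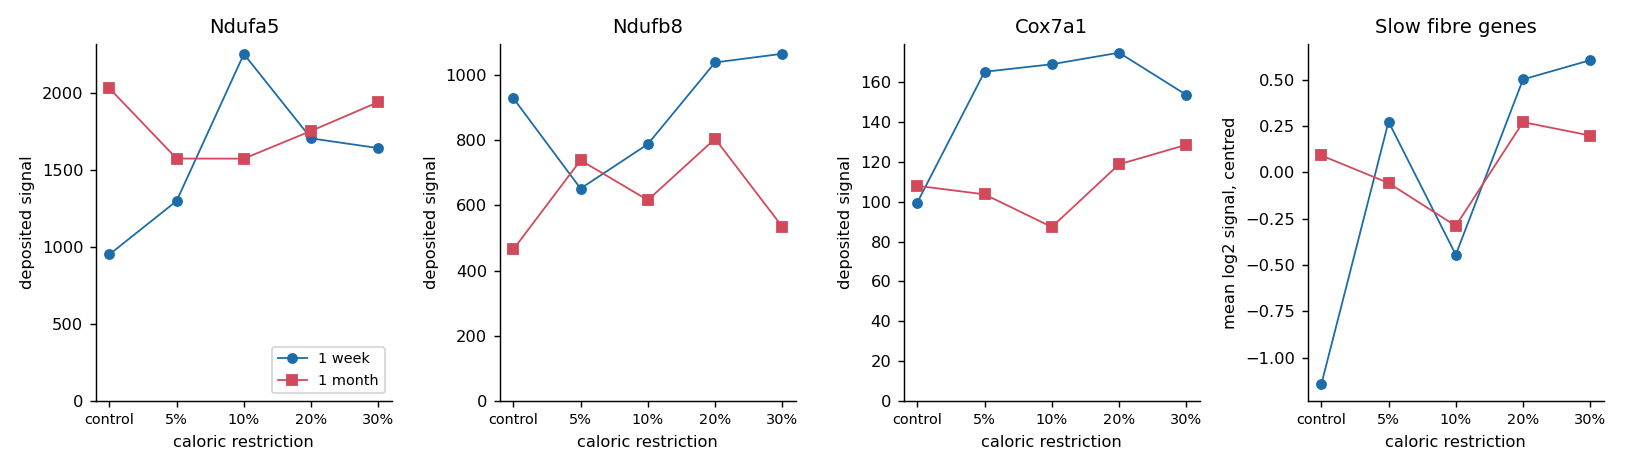
Deposited signal of Ndufa5, Ndufb8 and Cox7a1 and the centred mean log2 signal of 11 slow fibre genes (vertical axes) by level of restriction, 1 point per array, at 1 week (circles) and 1 month (squares). Ndufa5, Cox7a1 and the slow fibre mean have their lowest 1-week value on the control array, at 948.8, 99.6 and -1.15.

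Isoform pairs of complex IV are given side by side. Cox6a2, the heart and muscle form, read 5702 on the 1-week control and 5728, 5923, 5904 and 6388 with restriction, and 5629 on the 1-month control against 4167, 4655, 4718 and 5086. All its restricted values were above control at 1 week and below it at 1 month, and its difference was -0.10 ± 0.09, where the ubiquitous Cox6a1 had -0.06 ± 0.08. Cox8b, the muscle form of subunit 8, gave 6488 on the 1-week control and 7202, 7138, 6713 and 6816 with restriction, then 6641 on the 1-month control and 4205, 5386, 5604 and 5732. Its difference of -0.13 ± 0.11 stood beside 0.02 ± 0.08 for Cox8a. Cox4i1, the subunit through which ATP inhibits the enzyme, was at -0.08 ± 0.11, and Cox4i2, its hypoxia-inducible and lung-enriched isoform, at 0.15 ± 0.28. Cox6b1 and Cox7a2l, which links complexes III and IV, were at 0.02 ± 0.09 and -0.07 ± 0.08, and Cox5b, a zinc-binding subunit, at -0.03 ± 0.09.

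Cox4i2 was dim, with 36.8 on the 1-week control and 50.9, 40.4, 35.7 and 20.8 with restriction, and 24.2 on the 1-month control against 23.7, 31.7, 33.1 and 38.7. Its signal was lowest at the highest level at 1 week and highest there at 1 month, and its dose by duration contrast was 0.56 ± 0.16 (adjusted p = 0.77, limma). Cox7b, which had the smallest p in the contrast by duration, read 5499 on the 1-week control and 6251, 6260, 5865 and 6346 with restriction, and 6529 on the 1-month control against 4380, 4643, 4814 and 5220. None of its 1-week restricted arrays fell to the control value and none of its 1-month ones reached it. The member probe set of Cox5a was dim, at 151.5 on average, while a brighter probe set shared by Cox5a and a locus of the same family averaged 6075.

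In ATP synthase, the catalytic head subunits Atp5f1a (alpha), Atp5f1b (beta) and Atp5f1c (gamma) had differences of -0.03 ± 0.09, -0.08 ± 0.08 and -0.09 ± 0.10. Atp5f1b, which holds the sites of ATP formation, read 6836 on the 1-week control and 7183, 7002, 7457 and 7033 with restriction, and 6873 on the 1-month control against 5194, 6006, 6144 and 6265. All 1-week restricted arrays exceeded control and all 1-month ones fell short of it. Of the ring subunit c, made identically from 3 genes, Atp5mc3 alone had a single-gene probe set, with a difference of -0.11 ± 0.10. The lowest estimate was that of Atp5pf (coupling factor 6), -0.15 ± 0.08 (adjusted p = 0.45, limma). Atp5if1, the inhibitor that blocks ATP hydrolysis when the gradient is lost, was highest, reading 253.3 on the 1-week control and 284.5, 258.1, 315.7 and 259.3 with restriction, and 260.5 on the 1-month control against 281.0, 273.8, 285.3 and 242.4. Unlike most members it was not lower at 1 month, where 3 of 4 restricted arrays exceeded the control, and its difference was 0.09 ± 0.10.

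Of the subunits encoded by mitochondrial DNA, COX1 and COX2 of the catalytic core of complex IV were measured. COX2, which receives electrons from cytochrome c, read 11797 on the 1-week control and 12535, 12765, 12534 and 12959 with restriction, and 13275 on the 1-month control against 7443, 9608, 9446 and 10296. Its 1-month log2 ratios were -0.83, -0.47, -0.49 and -0.37, and those of COX1, where oxygen is reduced, were -0.71, -0.50, -0.50 and -0.32. As titled, both were placed like the nuclear members, above control or level with it at 1 week and below it at 1 month. Exchanging the 1-week control and 5% arrays put COX2 below control on the 5% array. Both were brighter than every member, with mean signals of 9128 and 11097 against at most 6565, and no brightness background is given for them. Neither passed for restricted against control (-0.22 ± 0.13 for COX2 and -0.20 ± 0.12 for COX1, adjusted p = 0.47 and 0.48, limma).

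Genes that build, feed and regulate the chain were read from lists. Among 41 tested assembly factors, none passed for restricted against control or the dose trend, and 4 passed for duration, where 10% of all tested probe sets did. Ttc19, needed for complex III, and Ecsit, needed for complex I, rose by 0.33 and 0.19 from 1 week to 1 month, and Cox11, a copper chaperone of complex IV, and Bcs1l, which inserts the Rieske protein, fell by 0.40 and 0.33. None of 14 genes of cytochrome c and ubiquinone synthesis and none of 19 of the outer membrane, import and cristae passed in these comparisons. Of 12 genes of the tricarboxylic acid cycle, Suclg2, a subunit of succinyl-CoA ligase, rose by 0.20 with duration and no other passed, against the same 10%. With the signals as deposited the estimates of Ecsit and Suclg2 turned to -0.01 and 0.00.

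Of 16 transcriptional regulators of mitochondria, Ppargc1a, the coactivator of mitochondrial biogenesis, passed for the dose trend at the edge of the threshold (0.27 ± 0.07 per 10 percentage points, adjusted p = 0.0497, limma), where 2% of all tested probe sets passed. It read 184.4 on the 1-week control and 276.3, 223.9, 422.2 and 446.6 with restriction, and 180.9 on the 1-month control against 276.0, 247.8, 250.4 and 273.1. Every restricted array lay above its control as titled. With the 1-week control and 5% arrays traded, the 1-week 5% and 10% arrays lay below control, and the slope was 0.25 ± 0.07 (adjusted p = 0.14, limma). With the slow fibre mean as a covariate it was 0.15 ± 0.07 (adjusted p = 0.48, limma). The members had a median dose trend of 0.02. Of the 16, 3 passed for duration, where 10% of tested probe sets did: Tfb2m, a mitochondrial transcription factor, and Esrra, an orphan nuclear receptor, which rose by 0.32 and 0.34, and Ppargc1b, a relative of Ppargc1a, which fell by 0.51.

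Promoter sequence was compared with motifs bound by factors known for these genes. RefSeq (GRCr8) gave a window from 250 bases before to 50 after the gene start for 70 of the 78 members, and 4 motifs of 7 letters were searched on both strands, with overlaps between motifs counted for each. GCATGCG, the core of the NRF1 site, was in 9 of 70 windows (12.9%) against 3.33% of all 33469 promoters in the table. CCGGAAG, an ETS motif of the kind bound by GABP, was in 20 (28.6% against 8.75%), AAGGTCA, the extended half-site of the ERR receptors, in 11 (15.7% against 4.61%), and AAGATGG, a YY1 core, in 19 (27.1% against 7.01%). At least 1 of them was found in 40 of 70, or 57.1% against 21.4%. The 33469 promoters were not limited to genes measured in this muscle or of like brightness, so no matched share is given. A match is a description of letters and not a site.

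The promoters of 4 members are shown because they stand at the ends of the results, Uqcrc2 with the estimate nearest to 0, Atp5mg with the smallest p for duration, and Ndufa5 and Cox7a1 with the largest differences. Each is the 250 bases before the start in GRCr8, 5′ to 3′ on the gene's strand, with motif matches in capitals. Uqcrc2 (chr1:184598990-184599239, plus strand) holds ETS letters at a pair of places and a YY1 core, Atp5mg (chr8:54130408-54130657, minus strand) holds NRF1, ETS and ERR letters, and in Ndufa5 (chr4:53971236-53971485, minus strand) and Cox7a1 (chr1:94568966-94569215, plus strand) none of the motifs' letters were found in this window.
Uqcrc2: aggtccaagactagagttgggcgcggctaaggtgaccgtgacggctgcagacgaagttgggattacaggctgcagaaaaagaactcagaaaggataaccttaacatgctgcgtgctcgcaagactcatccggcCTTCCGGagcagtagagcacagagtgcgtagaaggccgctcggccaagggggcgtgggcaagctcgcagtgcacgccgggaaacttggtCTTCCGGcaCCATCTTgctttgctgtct
Atp5mg: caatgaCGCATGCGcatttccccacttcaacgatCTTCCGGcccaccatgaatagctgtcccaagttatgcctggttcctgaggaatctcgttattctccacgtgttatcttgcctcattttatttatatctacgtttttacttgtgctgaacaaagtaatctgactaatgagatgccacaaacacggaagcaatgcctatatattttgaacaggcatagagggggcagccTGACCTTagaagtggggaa
Ndufa5: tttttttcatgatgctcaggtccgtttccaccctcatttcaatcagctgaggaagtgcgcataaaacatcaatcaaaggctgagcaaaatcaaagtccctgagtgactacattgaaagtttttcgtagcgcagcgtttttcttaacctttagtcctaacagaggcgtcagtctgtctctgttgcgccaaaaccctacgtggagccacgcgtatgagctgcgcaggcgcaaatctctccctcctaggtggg
Cox7a1: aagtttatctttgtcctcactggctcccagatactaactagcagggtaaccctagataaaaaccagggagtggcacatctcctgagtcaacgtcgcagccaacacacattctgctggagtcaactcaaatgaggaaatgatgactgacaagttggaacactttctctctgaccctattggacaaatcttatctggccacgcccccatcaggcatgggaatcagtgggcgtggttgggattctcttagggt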

How the data were processed

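RNA of gastrocnemius from 5 rats per group was pooled by the authors and hybridized to 1 Affymetrix rat expression array per group. The deposited intensity values are linear MAS5 signals per the labels, with 1 value for each probe set and array, each array scaled by the authors. Signals below 0.1 were set to 0.1, each array was scaled to 1 common trimmed mean (2% off each end), log2 was taken, and the 15521 probe sets in the upper 50% by mean log2 signal were tested. Symbols came from the platform annotation. The linear models used lmFit and a trended eBayes (limma 3.58.1, R 4.3.3), with Benjamini-Hochberg adjustment across every tested probe set at 0.05. Residual degrees of freedom came from pools of different groups. Brightness backgrounds were the median of non-member probe sets in 20 bins, or of the 100 nearest in mean log2 signal, the latter added after seeing the data. Pathway lists were assembly factors, cytochrome c and ubiquinone synthesis, tricarboxylic acid cycle, regulators, mitochondrial DNA and mitochondrial mass, and marker lists covered fibre types and other cells. Named members were the highest and lowest estimate per complex, isoform sets, core subunits and any that passed, and for each other list up to 4 genes that passed. Ndufs7, Ndufb11, Ndufc2, Ndufa13 and the genes of the printed promoters outside this rule were chosen after their values were seen. The members and lists were chosen with earlier results of these data known. On simulated data of 15521 probe sets with independent noise, 147 of 200 changes of 1 log2 unit between restricted and control arrays were called, with 9 false calls. For the dose trend, 178 of 200 slopes of 0.5 were called (10 false calls), and for duration 174 of 200 changes of 1 (7 false calls). Smaller changes, of the size of most member estimates, were not simulated, so these counts do not show how often such changes would be called.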

Additional observations from a re-analysis of the deposited data

How the results depend on the processing

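The labels give no replicate numbers, so there was no replicate block. With arrays of 1 level paired across durations (level as a block), 0 members passed for duration. No member passed for restricted against control, the dose trend, the restricted arrays alone, dose by duration or restricted against control by duration under any alternative run, except Ndufb11 in the dose trend at 1 week alone (1 member, also 1 after the brightness bin median was taken off). For duration the members passing numbered 71 on the signals as deposited, 2 with quantile normalization, cyclic loess or 50 brightness bins, 1 with median centring or the 100 nearest probe sets, and 0 to 11 when 1 array was left out, the 11 without the 1-month control array. The median for restricted against control was 0.074 at 1 week alone (0.078 after the bin median) and -0.19 at 1 month alone, and from -0.19 to 0.074 when 1 array was left out. That for the dose trend ran from 0.0094 to 0.056 when 1 array was left out and for dose by duration from -0.066 to 0.039. For the restricted arrays alone it was 0.017 with quantile normalization or the 100 nearest probe sets and 0.022 with cyclic loess. For duration it was 0.030 with median centring and -0.26 as deposited. For restricted against control by duration it was -0.077 with quantile normalization and -0.095 with the 100 nearest. The members had 312 ratios to control per duration. Those at least 0.5 in size numbered 9 higher and 3 lower at 1 week and 3 higher and 7 lower at 1 month. These pooled counts and the next ones have no share of other probe sets beside them, so they compare settings only. At 0.25 the lower ones at 1 month were 22 with quantile normalization, 24 with cyclic loess and 47 after the bin median, and once the 1-week control was swapped with the 1-week 5% array 16 were higher and 11 lower at 1 week. On the deposited signals the duration estimates of Ecsit and Suclg2 reversed to -0.011 and -0.0028. The cause of these differences was not tested beyond what each setting changes. Leaving out Cox6c-ps1, the non-subunit members or dim members left each median within 1 median standard error. The number of arrays limits precision, and the signals hold no counts.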

Other observations

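Probe sets that the annotation gives to a subunit and a related locus together were no members. The 7 of them carried Atp5mc1, Atp5mc2, Cox7a2, Cox5a, Uqcrb, Ndufs5 and Ndufa10, each with a paralog or pseudogene, so their signal cannot be assigned to 1 gene. Their median log2 ratio to control was 0.01, 0.07, 0.03 and 0.12 at 5, 10, 20 and 30% CR at 1 week and -0.44, -0.25, -0.23 and -0.16 at 1 month, and 6 of 7 lay below control on all 4 restricted arrays at 1 month. The Uqcrb probe set, of a complex III subunit that binds ubiquinone, read 6473 on the 1-week control and 6464, 6808, 6429 and 7251 with restriction, and 6184 on the 1-month control against 4640, 5293, 5262 and 5506.

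A second bright probe set of Uqcrc2 read 3030 on the 1-week control and 3165, 3243, 4321 and 3915 with restriction, and 3896 on the 1-month control against 2951, 2758, 3370 and 3003. As with the brighter probe set of that gene, its values were above control on the 1-week restricted arrays and below it on the 1-month ones. Exchanging the 1-week control and 5% arrays put the 5% array below control for both probe sets. For the brighter probe set the 1-week 10% array was then below control too.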
